A study of Mus musculus with 3 samples.

Results

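Checkpoint and costimulatory ligands are surface or secreted proteins through which a B cell restrains or stimulates the T cells, NK cells and macrophages that contact it. The 10 genes described here were chosen by name: Cd274, Pdcd1lg2, Cd80, Cd86, Icosl, Tnfrsf14, Cd47, Lgals9, Pvr and Vsir. All 10 were found, each as 1 row, among the 37646 genes of the count tables. The 3 libraries are polyA RNA of B220+GFP+ lymphoma cells sorted from the spleens of moribund C57BL/6 pBIC2 mice, and are called tumours 1, 2 and 3 here. The pBIC2 genotype is given as p53F/FBlimp1F/FIKK2castopF/stopFCg1Cre/+Eu-hBCL2tg/+. It combines floxed p53 and Blimp1 alleles, a constitutively active IKK2 behind a floxed stop, Cre from the Cγ1 locus and a human BCL2 transgene under the Eµ enhancer. The labels class the lymphomas as ABC-DLBCL, a diffuse large B cell lymphoma that resembles activated B cells, and give no age. Cre from Cγ1 acts only in cells that have transcribed that locus, whereas the BCL2 transgene is carried by B cells with or without recombination. Germinal centre B cells (B220+YFP+), the control population named in the design, were not analysed here. The values are therefore levels in lymphoma cells, with no test against normal B cells. The labels do not say that the libraries come from separate mice, so the spread between them may be technical in part.

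Each ligand of the set acts through a receptor on another cell. PD-L1 (Cd274) and PD-L2 (Pdcd1lg2) bind PD-1 on T cells and dampen T cell receptor signalling. CD80 and CD86 bind CD28, which stimulates, and CTLA-4, which inhibits, and ICOS ligand sustains follicular helper T cells. HVEM (Tnfrsf14) engages BTLA and CD160, CD47 is the "do not eat me" signal read by SIRPα on macrophages, galectin-9 (Lgals9) binds TIM-3, CD155 (Pvr) binds TIGIT, CD226 and CD96, and VISTA (Vsir) restrains T cells. In activated B cells, NF-κB and interferon signalling are known inducers of several of these genes.

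The libraries held 15576975, 16477997 and 17014022 gene counts. B cell genes were abundant: all 6 examined (Cd79a, Cd79b, Ms4a1, Pax5, Cd74 and Ptprc) reached 10 CPM in all tumours, against 30.3% of all genes with a count. Cd74 and Ptprc are not confined to B cells, and Ptprc was at 404, 711 and 1373 CPM in tumours 1, 2 and 3. Among the other 4 genes the lowest value was 513 CPM, for Cd79b in tumour 1. CPM here are read counts scaled by library size with TMM factors. The median of the 6 B cell genes was 902, 1462 and 1463 CPM in tumours 1, 2 and 3. Genes of other cell types were unevenly spread. The summed level of 10 T cell genes was 160, 92.8 and 1068 CPM, with 9 of 10 highest in tumour 3 (against 37.8% of all genes at a mean of 1 CPM or more) and 8 of 10 lowest in tumour 1 (against 39.2%). Cd5 (81.2 CPM) and Lck (67.9 CPM) made most of the tumour 1 sum, and Cd5 was lowest in tumour 3. Cd3e, a defining T cell gene, had 0, 23 and 1023 counts. The summed level of 10 macrophage and monocyte genes was 35.6, 403 and 183 CPM, with 9 of 10 highest in tumour 2 (against 29.9% of all genes), and Cd14 had 0, 3 and 0 counts. Cd68 alone made most of each sum, at 24.5, 322 and 165 CPM. The 6 NK cell genes summed to 1.84, 2.43 and 49.3 CPM, with 4 highest in tumour 3. Most of that tumour 3 sum was Prf1 (40.8 CPM) and Gzma (7.48 CPM). Klrb1c had 0 counts there, and Ncr1 had none in any tumour. The 6 dendritic cell genes summed to 4.33, 8.08 and 49.1 CPM, with Itgax alone at 43.6 CPM in tumour 3. Of these 6, 3 were highest and 3 (Flt3, Xcr1 and Siglech) lowest in tumour 3. Neutrophil genes summed to 0.197, 16.3 and 41.3 CPM, with 5 of 6 highest in tumour 3. In such sorted bulk samples, fewer cells of a type and less RNA per cell cannot be told apart.

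All 10 ligand genes were detected in every tumour. In all tumours, 9 of 10 reached 10 CPM, against 30.3% of the 25463 genes with a count, and the exception was Vsir. The list median was 47.8, 48.0 and 39.9 CPM in tumours 1, 2 and 3 (45.2 ± 4.60 CPM, SD, n = 3). The median of all genes at a mean of 1 CPM or more was 28.9 ± 0.987 CPM. The summed ligand RNA was 877, 965 and 797 CPM. These sums lay closer together than the levels of most single members did, as sums over genes with differing tumour orders tend to do. Cd274 (259, 449 and 219 CPM) and Cd47 (235, 173 and 243 CPM) made most of each sum. Tumour 2 was the highest for Cd274 and the lowest for Cd47. The plot of CPM by tumour shows the 10 genes side by side.

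**Figure D1:**
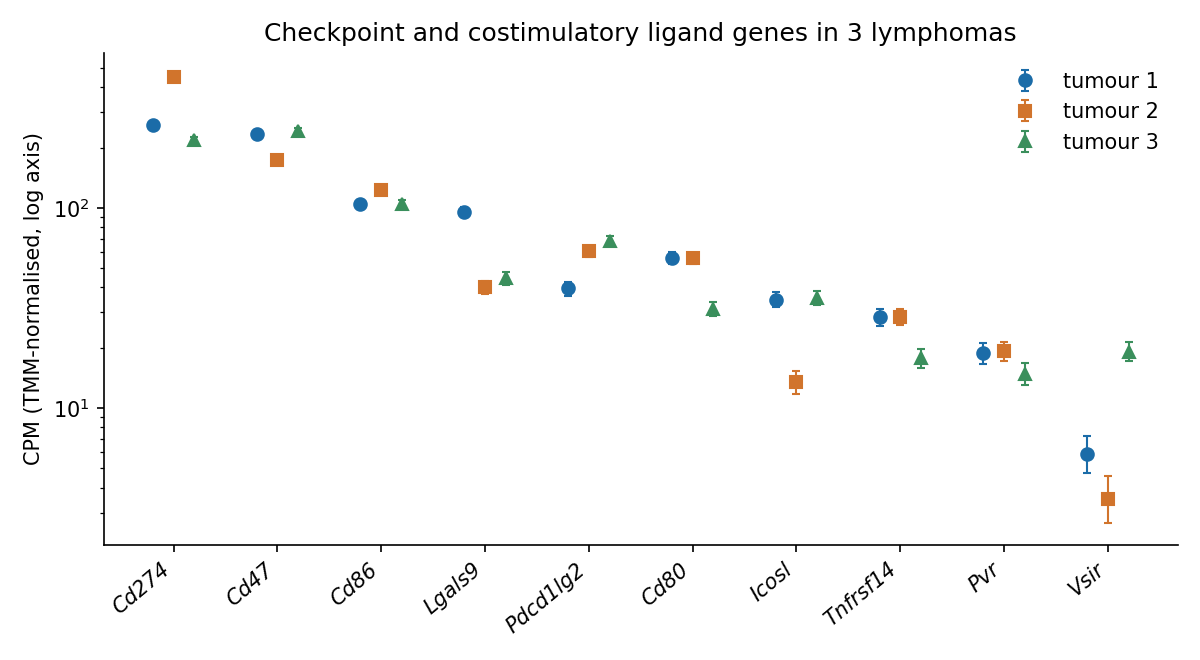
CPM of each ligand gene (log axis) in tumours 1 (circles), 2 (squares) and 3 (triangles), ordered by mean, with exact 95% Poisson intervals for counting error. Cd274 has the highest mean, with 449 CPM in tumour 2, although Cd47 lies above it in tumour 3. Vsir has the lowest mean, with 3.52 CPM in tumour 2, but its 19.1 CPM in tumour 3 lies above Tnfrsf14 and Pvr there.

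Cd274 and Pdcd1lg2, which encode the PD-1 ligands, are neighbours on chromosome 19. Because they are the most abundant member and its closest relative in function and position, the sequence before each start is shown (RefSeq, GRCm38.p6, plus strand, 5′ to 3′). For Cd274 only the 47 bases between its RefSeq start and the first exon of Plgrkt, a gene transcribed in the opposite direction, are given, chr19:29367391-29367437, with a GC box (GGGCGG or its complement CCGCCC) in capitals. For Pdcd1lg2 the 250 bases chr19:29410669-29410918 are given, with a κB-like match (GGGA and CC with 4 bases of any kind between them, on either strand) in capitals.
Cd274: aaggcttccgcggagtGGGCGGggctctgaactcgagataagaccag
Pdcd1lg2: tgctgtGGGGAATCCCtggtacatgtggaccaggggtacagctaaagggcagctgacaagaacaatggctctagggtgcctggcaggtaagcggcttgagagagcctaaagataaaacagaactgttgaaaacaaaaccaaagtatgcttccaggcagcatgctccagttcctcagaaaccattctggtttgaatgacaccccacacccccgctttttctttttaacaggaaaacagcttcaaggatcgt

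The κB-like letters were searched because the active IKK2 of this model feeds NF-κB. RefSeq windows of 250 bases before a start were found for 8 members, and Cd86 and Pvr had none in the table. A κB-like match lay before 5 of the 8: GGGGAATCCC in Pdcd1lg2, GGGAACCACC in Cd80, GGGATGGGCC in Icosl, GGGCCCTCCC in Tnfrsf14 and GGGAACACCC in Lgals9. Of 32851 windows of the same length in the table, 17.6% held such a match. The windows of Cd274, Cd47 and Vsir held none. An interferon regulatory factor-like pair (GAAA and GAAA with 2 bases between them, on either strand) was present in Tnfrsf14 (TTTCATTTTC) and Lgals9 (TTTCTTTTTC), against 2.98% of windows, and a STAT-like site (TTC and GAA with 3 bases between them, the same on both strands) in none of the 8, against 7.02%. GC boxes lay before Cd274, Icosl, Cd47 and Vsir, against 32.7% of windows, and the Icosl GC box does not overlap its κB-like match. Cd47 had 30 CpG dinucleotides in its first window and Icosl 23, while Tnfrsf14 had 2 and Pdcd1lg2, Cd80 and Lgals9 had 3 each (median of all windows 6). For Cd47, Cd80 and Tnfrsf14 the RefSeq start lies 55.1 kb, 3.37 kb and 0.486 kb from the start in GENCODE M21. The windows of Cd47, Cd80 and Tnfrsf14 thus lie within the genes as GENCODE annotates them. The RefSeq start of Icosl lies 0.066 kb inside its GENCODE gene, so its GC box, 59 bases before the RefSeq start, also falls within that gene. These matches describe letters only, and binding was not measured.

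Cd274 (ENSMUSG00000016496.7, chr19:29367455-29388095, plus strand) was at 259, 449 and 219 CPM in tumours 1, 2 and 3 (309 ± 123 CPM, SD, n = 3). Tumour 2 stood above the other two, whose levels were close to each other. The highest level was 2.05-fold the lowest (exact 95% interval 1.97 to 2.13, counting error only). Without tumour 2 the mean was 239 CPM and the ratio 1.18, and without tumour 3 the ratio was 1.73. Most macrophage genes, given above, were also highest in tumour 2, and their part in the Cd274 level was not tested. Cd274 lay at percentile 98.0 of mean CPM among all genes with a count.

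An antisense gene, Gm36043, lies on the minus strand across Cd274 and shares 511 of its 3622 exonic bases in GENCODE M21. Gm36043 was at 74.6, 112 and 39.97 CPM, and was thus likewise highest in tumour 2 and lowest in tumour 3. Its counts equalled 28.8%, 25.1% and 18.3% of those of Cd274. The use of strand in the counting is not given in the sources used here. Cd274 and Gm36043 reads may therefore not be separable. The other members shared no exonic base with another annotated gene, although Vsir lies within Cdh23 on the opposite strand, and Cdh23 had 17, 3 and 14 counts.

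Pdcd1lg2 (ENSMUSG00000016498.10, chr19:29410919-29471161, plus strand) was at 39.5, 60.6 and 68.4 CPM in tumours 1, 2 and 3 (56.2 ± 14.95 CPM). It was lowest in tumour 1, and tumours 2 and 3 differed by little more than their counting intervals (56.9 to 64.5 and 64.6 to 72.4 CPM). The ratio of tumour 3 to tumour 1 was 1.73 (1.57 to 1.91). Both PD-1 ligands were therefore above the counting floor by a wide margin in all tumours, but Cd274 was highest in tumour 2 and Pdcd1lg2 in tumour 3. Per kilobase of exon, Cd274 was at 71.4, 124 and 60.4 RPKM and Pdcd1lg2 at 20.2, 30.9 and 34.9 RPKM, so the ranges did not overlap. Pdcd1, the gene of PD-1 itself, was at 8.52 CPM in tumour 1 and 1.78 CPM in tumour 3, and had 3 counts in tumour 2. Rgmb, a second binding partner of PD-L2, was at 9.96 and 13.2 CPM in tumours 2 and 3 and had 2 counts in tumour 1.

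In human B cell lymphomas the region that holds JAK2 and the PD-1 ligand genes is a known site of joint copy gain, so the genes around Cd274 were examined. Within 500 kb lay 16 other protein-coding genes, of which 12 had a mean of at least 1 CPM. Of these 12, 4 were highest in tumour 2 like Cd274, against 29.9% of all genes, while 5 were highest in tumour 3 and 3 in tumour 1. Those highest in tumour 2 were Rcl1, Insl6, Plgrkt and Ermp1. Insl6 was at 9.96, 27.2 and 12.2 CPM, Plgrkt, which starts beside Cd274, at 95.3, 198 and 162 CPM, and Ermp1 at 63.7, 107 and 93.7 CPM. Jak2, the kinase downstream of the interferon-γ receptor, was lowest in tumour 2, at 66.4, 45.7 and 120 CPM. DNA copy number was not measured.

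**Figure D2:**
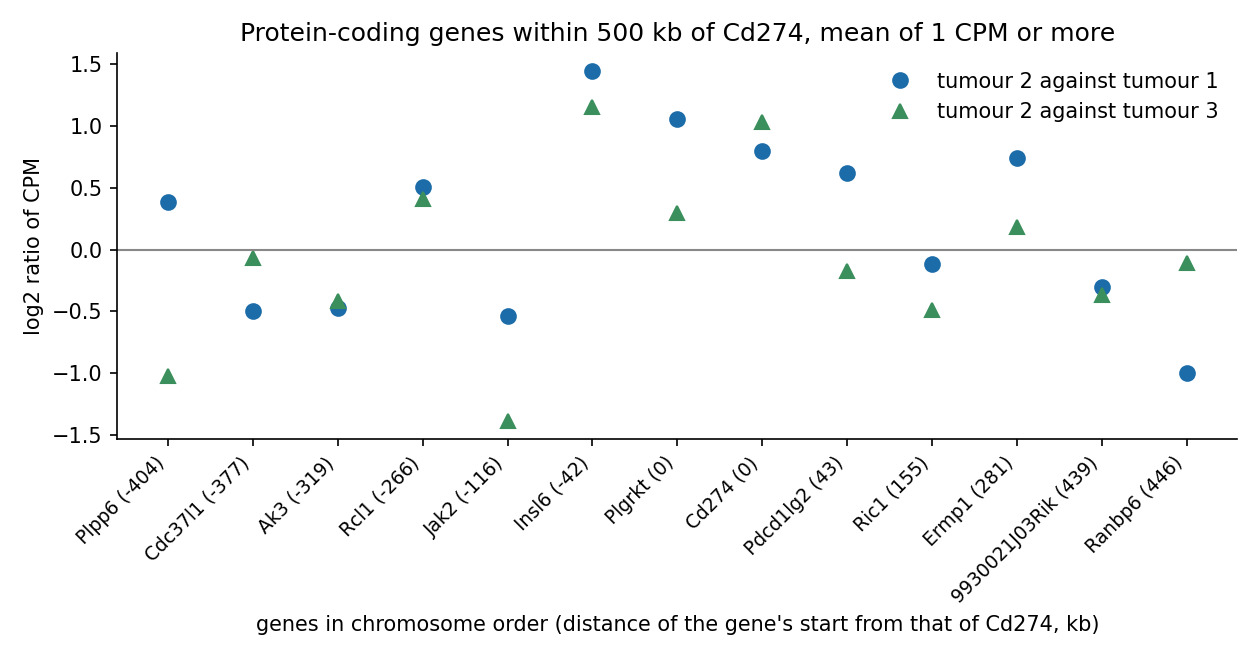
Log2 ratio of CPM in tumour 2 to tumour 1 (circles) and to tumour 3 (triangles) for Cd274 and the 12 protein-coding genes within 500 kb with a mean of at least 1 CPM, in chromosome order. Both ratios lie above 0 for Rcl1, Insl6, Plgrkt, Cd274 and Ermp1, and both lie below 0 for Cdc37l1, Ak3, Jak2, Ric1, 9930021J03Rik and Ranbp6.

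Cd86, the ligand of CD28 and CTLA-4 that marks activated B cells, was the steadiest member. Cd86 (ENSMUSG00000022901.13, chr16:36603869-36666081, minus strand) was at 104, 123 and 105 CPM in tumours 1, 2 and 3 (111 ± 10.6 CPM). Tumours 1 and 3 were the same within counting error, and tumour 2 was 1.18-fold above the lowest (1.101 to 1.257). Its SD of log2 CPM, 0.13, lay at percentile 8.06 of all genes at a mean of 1 CPM or more.

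Cd80 (ENSMUSG00000075122.5, chr16:38455561-38496335, plus strand), the second ligand of CD28 and CTLA-4, was at 56.0 and 55.9 CPM in tumours 1 and 2 and at 31.2 CPM in tumour 3 (47.7 ± 14.3 CPM). Tumours 1 and 2 could not be separated at this depth, and tumour 3 lay below both (ratio of highest to lowest 1.79, interval 1.61 to 2.002). Per kilobase of exon, Cd86 was above Cd80 in every tumour, at 28.5, 33.6 and 28.6 RPKM against 15.1, 15.1 and 8.43 RPKM. The receptors of the pair had another distribution. Cd28 was at 0.459, 1.21 and 36.2 CPM, and Ctla4 at 4.65, 5.10 and 27.0 CPM, both highest in tumour 3, where Cd80 was lowest.

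Icosl, whose product is the ICOS ligand, was low in 1 tumour. Icosl (ENSMUSG00000000732.9, chr10:78069302-78083913, plus strand) was at 34.7, 13.4 and 35.4 CPM (27.9 ± 12.5 CPM). Tumours 1 and 3 overlapped within counting error, and the highest was 2.64-fold the lowest (2.26 to 3.09). Without tumour 2 the ratio was 1.02 and the mean 35.1 CPM. Tumour 2 was thus the highest for Cd274 and the lowest for Icosl. Icos, its receptor on T cells, was at 0.524, 0.668 and 5.81 CPM.

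Tnfrsf14 (ENSMUSG00000042333.16, chr4:154921933-154928563, minus strand) encodes HVEM, a TNF receptor family member that is often lost in human germinal centre lymphomas. Its level was 28.4, 28.5 and 17.7 CPM (24.9 ± 6.21 CPM). Tumours 1 and 2 were equal within counting error, and tumour 3 was lower (ratio of highest to lowest 1.61, interval 1.39 to 1.87), as for Cd80. Btla, the inhibitory partner of HVEM that B cells themselves express, was at 286, 171 and 256 CPM (238 ± 59.7 CPM) and was the most abundant of the 12 receptor genes. RNA of both sides of the HVEM-BTLA pair was therefore detected in the library of every tumour. Protein was not measured, and bulk RNA does not show which cells carried each transcript. Cd160, another HVEM receptor, was at 0.918, 0.668 and 25.9 CPM, and Tnfsf14, whose product LIGHT also binds HVEM, had 0, 1 and 85 counts.

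Cd47 (ENSMUSG00000055447.19, chr16:49800533-49915010, plus strand) was the second most abundant member in CPM, at 235, 173 and 243 CPM (217 ± 38.4 CPM). Tumour 2 was lowest, and tumours 1 and 3 had overlapping counting intervals (227 to 242 and 235 to 250 CPM). The ratio of highest to lowest was 1.41 (1.34 to 1.47), so Cd47 varied less than Cd274 between the same libraries. Sirpa, the CD47 receptor of myeloid cells, was at 33.7, 42.0 and 98.3 CPM. Qpctl, the enzyme that modifies CD47 at its SIRPα binding site, was at 14.4, 16.0 and 13.9 CPM.

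Lgals9 (ENSMUSG00000001123.15, chr11:78962974-78984946, minus strand), which encodes the secreted lectin galectin-9, was the only member with tumour 1 clearly above both other tumours. Its level was 95.6, 40.03 and 44.4 CPM (60.0 ± 30.9 CPM). Tumours 2 and 3 were close, with counting intervals of 37.0 to 43.2 and 41.3 to 47.6 CPM. The highest level was 2.39-fold the lowest (2.18 to 2.62), and without tumour 1 the ratio was 1.11 and the mean 42.2 CPM. Havcr2, the gene of its receptor TIM-3, had 3 counts in tumour 1, 23 in tumour 2 and 894 in tumour 3 (51.4 CPM).

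Pvr (ENSMUSG00000040511.14, chr7:19903578-19921160, minus strand), the gene of CD155, was low and even, at 18.7, 19.2 and 14.8 CPM (17.6 ± 2.43 CPM). The counting intervals of tumours 1 and 3 met (16.6 to 21.1 and 13.0 to 16.7 CPM), and the ratio of highest to lowest was 1.30 (1.098 to 1.54). Nectin2, whose product binds TIGIT and CD226 as well, had 0, 7 and 11 counts, against 286, 316 and 257 of Pvr. Tigit was at 1.90, 4.37 and 18.8 CPM and Cd96 at 0, 1.09 and 23.8 CPM, whereas Cd226 had 1, 2 and 1 counts.

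Vsir (ENSMUSG00000020101.14, chr10:60346851-60372684, plus strand) had the lowest mean of the members and was the most variable of them. VISTA, its product, is best known from myeloid cells and T cells. Its level was 5.90, 3.52 and 19.1 CPM (9.51 ± 8.39 CPM). Tumour 3 stood apart with a level 5.42-fold that of tumour 2 (4.09 to 7.29), and without tumour 3 the mean was 4.71 CPM and the ratio 1.67. Most T cell and neutrophil genes, given above, were also highest in tumour 3. So were Prf1, Gzma, Klrd1 and Klre1 of the NK cell list, Klrd1 and Klre1 with 10 and 8 counts there. Of the dendritic cell list, Itgax, Zbtb46 and Clec9a were highest in tumour 3, Clec9a with 1 count. In the same 2 lists, Klrb1c had 26, 1 and 0 counts, and Ncr1 had none in any tumour. Flt3, Xcr1 and Siglech were lowest in tumour 3, with at most 20 counts in any tumour. Of 10 macrophage and monocyte genes, 9 were highest in tumour 2, where Vsir was lowest. The part of these genes' source cells in the Vsir level was not tested.

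Most receptor genes were highest in the same tumour. Of 12 receptor genes, 2 (Btla and Sirpa) reached 10 CPM in all tumours, against 30.3% of all genes with a count. In tumour 3, 9 were highest, against 37.8% of all genes at a mean of 1 CPM or more. Of the 11 receptors with a mean of at least 1 CPM, 10 had a highest tumour at least 2-fold above the lowest, against 42% of all such genes. The exception was Btla. Cd28, Icos, Cd160, Havcr2 and Cd96 reached that mean only through tumour 3, and Pdcd1 only through tumour 1. Such genes are nearly bound to be 2-fold apart, so the count of 10 does not show that receptors vary more than ligands. Among the ligands this number was 4 of 10 (Cd274, Icosl, Lgals9 and Vsir), near the share of all genes. The 9 receptors highest in tumour 3 were Sirpa, Havcr2, Cd28, Ctla4, Cd160, Cd96, Tigit, Icos and Rgmb. Sirpa, known from myeloid cells, was the most abundant of them there. The others except Rgmb are known from T or NK cells. T cell genes were highest in the same library, with Cd8a at 0.656, 4.49 and 243 CPM and Thy1 at 0.852, 3.28 and 193 CPM. The part of those genes' source cells in the receptor values was not tested.

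**Figure D3:**
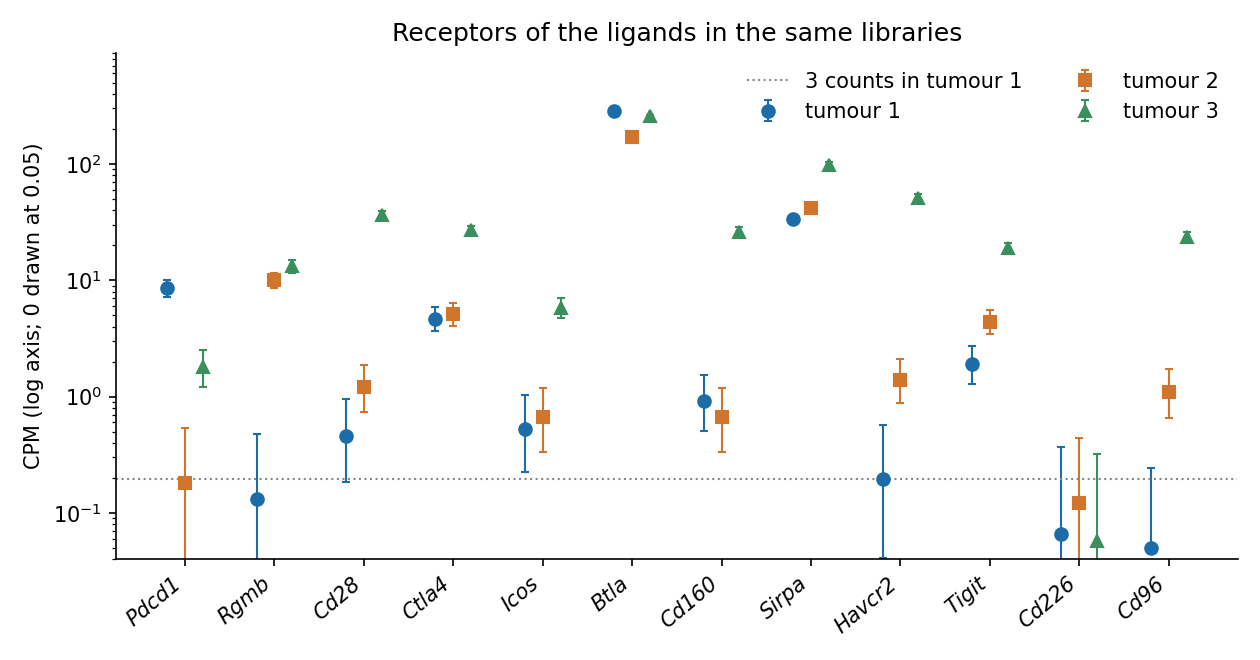
CPM (log axis, 0 drawn at 0.05) of 12 receptor genes in tumours 1 (circles), 2 (squares) and 3 (triangles), with exact 95% Poisson intervals and a dotted line at 3 counts of tumour 1. Btla is above 100 CPM in all 3 tumours, and 9 of 12 receptors are highest in tumour 3, for example Havcr2 at 51.4 CPM.

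Ordered by length-normalised level (RPKM, CPM per kilobase of annotated exon), Cd274 was first in every tumour, at 85.2 ± 33.9 RPKM, and did not overlap with the next gene. Cd47 (34.5 ± 6.11 RPKM), Cd86 (30.2 ± 2.89), Pdcd1lg2 (28.7 ± 7.62) and Lgals9 (28.1 ± 14.5 RPKM) followed, and neighbours among these 4 genes did not differ beyond their spread. Tnfrsf14 (17.3 ± 4.32 RPKM) overlapped with Lgals9 above it and with Cd80 (12.9 ± 3.86 RPKM) below it. Icosl (6.03 ± 2.71 RPKM) lay below Cd80 in every tumour, and Pvr (2.87 ± 0.397 RPKM) and Vsir (1.90 ± 1.67 RPKM) came last and overlapped with each other. Pvr lay below Icosl by mean and SD, but its 3.14 RPKM in tumour 2 exceeded the 2.91 RPKM of Icosl there. Within single tumours, Lgals9 was second in tumour 1, Cd86 in tumour 2 and Cd47 in tumour 3. With the longest annotated transcript as length, 6 of 10 genes kept their rank.

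**Figure D4:**
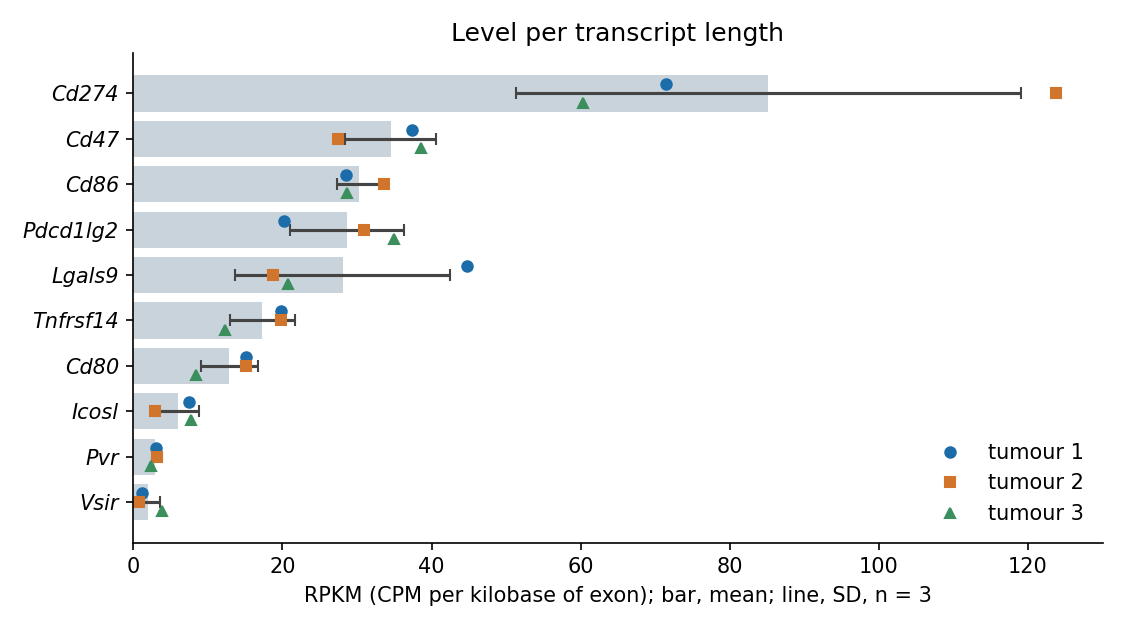
RPKM of each ligand gene, as the mean (bar), SD (line, n = 3) and single tumours (circles, squares and triangles for tumours 1, 2 and 3). Cd274 at 85.2 RPKM is above all others, and the 4 genes from Cd47 to Lgals9 lie between 34.5 and 28.1 RPKM.

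The spread of the ligands between tumours was that of an ordinary expressed gene. The median SD of log2 CPM over the 10 members was 0.45, against 0.44 over the 12449 genes at a mean of 1 CPM or more. Cd86 (0.13), Pvr (0.21) and Cd47 (0.27) were the steadiest, and Vsir (1.23), Icosl (0.80) and Lgals9 (0.68) the most variable. The members did not share 1 order of tumours. Of all genes at a mean of 1 CPM or more, tumours 1, 2 and 3 were highest for 32.3%, 29.9% and 37.8% and lowest for 39.2%, 30% and 30.8%. The highest tumour was 2 for Cd274 and Cd86, 3 for Pdcd1lg2 and Vsir, and 1 for Lgals9 under every scaling tried. For Cd47, Cd80, Icosl, Pvr and Tnfrsf14, 2 tumours were nearly equal and the highest depended on the scaling. The lowest tumour was the same under every scaling for all members except Cd86. It was tumour 2 for Cd47, Icosl, Lgals9 and Vsir, tumour 3 for Cd274, Cd80, Tnfrsf14 and Pvr, and tumour 1 for Pdcd1lg2.

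**Figure D5:**
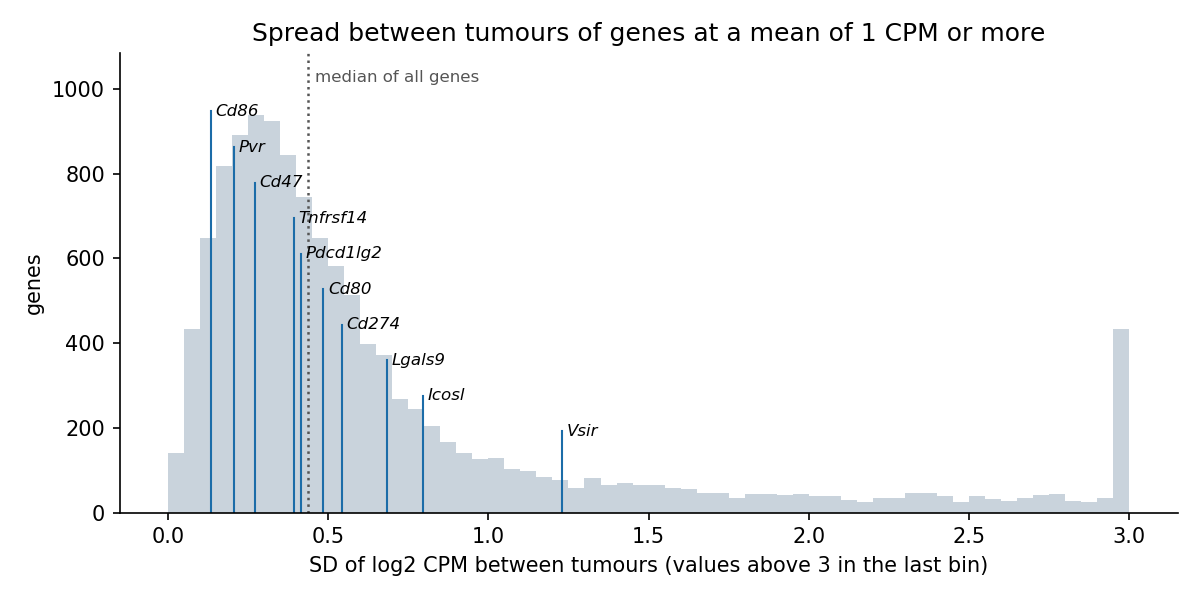
Histogram of the SD of log2 CPM between the 3 tumours for 12449 genes at a mean of 1 CPM or more, with each ligand gene marked (line heights only separate the names) and the median of all genes dotted. The members run from Cd86 at 0.13 to Vsir at 1.23, on both sides of the median of 0.44.

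Among 21 further genes of the B7, nectin, TNF, SLAM and related families, 8 reached 10 CPM in all tumours, near the 30.3% of all genes with a count. The 21 and the 8 include Cd40, a receptor, and Sirpa, which is also among the 12 receptor genes. The 3 most abundant encode small B cell surface antigens or an activation marker: Cd52 at 1376, 2449 and 1395 CPM, Cd24a at 1825, 2294 and 817 CPM, and Cd83 at 186, 119 and 83.2 CPM. CD24, and CD52 in its soluble form, bind inhibitory Siglec receptors. Vtcn1 (B7-H4) and Fgl1, a ligand of LAG-3, had no count in any tumour, where 3 counts correspond to 0.197, 0.182 and 0.173 CPM. Cd40, the receptor of T cell help, was at 61.9, 171 and 106 CPM, so that tumour 2 was highest for it as for Cd274. Cd200, a ligand that restrains myeloid cells, was at 31.9, 39.4 and 8.74 CPM, lowest in tumour 3 like Cd80 and Tnfrsf14.

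Of 20 known regulators of PD-L1 or CD47, 19 reached 10 CPM in all tumours, against 30.3% of all genes with a count, and the exception was Cmtm4, a relative of the PD-L1 stabiliser Cmtm6, with 2, 16 and 143 counts. Cmtm6 itself was at 156, 105 and 109 CPM, highest in tumour 1 and not in tumour 2. Myc, a transcription factor that can induce both Cd274 and Cd47, was at 704, 986 and 659 CPM, with the same order of tumours as Cd274. Cd47 was instead lowest in tumour 2, where Myc was highest, and a part of Myc in either level was not tested. Jak1, a kinase of interferon receptors, was at 296, 316 and 525 CPM, and Rel, an NF-κB subunit that the active IKK2 pathway releases, at 403, 340 and 309 CPM. Irf1, the interferon-induced activator of Cd274, was at 247, 345 and 353 CPM. Jak1 was lower in tumour 2 than in tumour 3 and Rel lower than in tumour 1, while Irf1 was nearly equal in tumours 2 and 3. The regulators had a median SD of log2 CPM of 0.31.

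Over 3 tumours many genes can resemble a single gene, as for Cd274. Of 8389 genes at a mean of 10 CPM or more, outside immunoglobulin, mitochondrial, ribosomal protein and predicted genes, 80 lay within 0.1 of Cd274, by the root mean square difference of log2 CPM centred on each gene's mean. Closest were Mea1 (60.4, 104.7 and 50.7 CPM, difference 0.0045), Mdm2, the ubiquitin ligase of p53 (94.5, 162 and 79.0 CPM, 0.0082), and Itm2b (418, 709 and 347 CPM, 0.014). No other member was near, the nearest being Tnfrsf14 at 0.32. For Vsir, the most variable member, 3 genes lay within 0.1: Rab27a, a GTPase of vesicle secretion (19.4, 11.6 and 60.6 CPM, 0.015), Pon3 (7.08, 4.62 and 23.8 CPM, 0.049) and Cnp (130, 84.3 and 412 CPM, 0.049). Icosl was the nearest other member to Vsir, at 0.68. The limit of 0.1 was the same for both queries, although Vsir varied more (SD of log2 CPM 1.23 against 0.54 for Cd274). Counting error alone at the lowest Vsir count, 58, is 0.19 in log2, more than that limit. The numbers 80 and 3 can therefore not be compared, and the closest genes of Vsir are uncertain.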

How the data were processed

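RNA of 3 sorted lymphoma libraries was sequenced as single-end reads of 50 nt after polyA selection, per the labels. Each library has 1 deposited table of raw read counts by gene. The submitters' processing notes name STAR 2.5.2b, featureCounts 1.6.0, FastQC and mm10. Annotation release and strand setting: not given in the sources used here.

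From these counts, CPM were computed with TMM factors (0.979, 0.999 and 1.02) from edgeR 4.0.16 (R 4.3.3) after filterByExpr (11273 genes kept). Log2 CPM used a prior count of 2. GENCODE M21 supplied exon lengths and positions for 37536 genes, all 10 members included, and RefSeq the promoter windows. Intervals are exact 95% Poisson intervals, and those of ratios are exact conditional intervals. Both cover counting error only: no molecular identifiers are named, so PCR copies may count as separate reads. DESeq2 1.42.0 gave alternative size factors. Python 3.11.15 with SciPy 1.17.1, pandas 2.3.3, NumPy 2.4.6 and matplotlib 3.10.9 served for all else. Calls and intervals were tried on simulated Poisson counts. These hold counting error only, so the trial cannot say how calls behave under other spread between libraries.

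The labels give 1 group, so no contrast was fitted. Replicate numbers follow accession order and only name the tumours. The members, lists and thresholds were chosen with earlier results of these data known. All members are named. Of the pathway lists, the rule names the 3 most abundant genes and those with at most 3 counts in every tumour. It also names the genes near Cd274 and the 3 closest in pattern to Cd274 and to the most variable member. Other receptors, Nectin2, Tnfsf14, Cd40, Cd200, Qpctl, Cmtm6, Irf1, Cmtm4, Gm36043, the GC box and marker genes were singled out after their values were seen. 1 gene of the marker lists is not reported here.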

Additional observations from a re-analysis of the deposited data

How the results depend on the processing

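With library totals alone, DESeq2 size factors, TMM without a filter, or totals without immunoglobulin and mitochondrial genes, the list median was 45.2 to 48.3 CPM, 9 members stayed at 10 CPM or more in every tumour, 4 at least 2-fold apart, and all 10 kept their RPKM rank. Under these 4 scalings no member's mean level moved by more than its SD. Without tumour 3 the mean of Vsir was 4.71 CPM against 9.51 CPM. At a threshold of 20 CPM in every tumour 6 members passed, and at 5 CPM 9. The number at least 2-fold apart was 7 at 1.5-fold and 1 at 3-fold, and 2 to 3 with 1 tumour left out, because fewer tumours are compared. With the longest annotated transcript as length, 6 members kept their rank. Leaving out 1 tumour gave list medians of 43.8 to 47.9 CPM. The members highest in tumours 1, 2 and 3 numbered 2, 4 and 4, but 6, 2 and 2 with TMM without a filter. No paired analysis was possible because there is 1 group. Depth limits Vsir and Icosl most, with 58 and 221 counts in their lowest libraries.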
